A study of Rattus norvegicus with 8 samples.

Results

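Fatty acid oxidation genes were followed on 8 single-colour expression arrays of rat kidney RNA. The 4 APL arrays carried kidneys of rats given APL at 150 mg/kg for 4 weeks, and the 4 Control arrays carried kidneys of rats given 0.5% methylcellulose, a vehicle, over the same 4 weeks. APL is read here as allopurinol, an inhibitor of xanthine oxidase, because the title of the series ties that drug to a model of renal fibrosis. All animals were male SD rats (Sprague-Dawley) of 10 weeks, and no genotype, allele or second agent is given for either group. The title speaks of tubules and the tissue label says kidney; whether the 4 samples of a group came from separate animals is not stated, so p-values measure the spread between these samples, which may be technical.

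The gene set was a list of 35 symbols, found among 15637 genes with a symbol and a probe by matching each probe's transcript accession to RefSeq. The list was split by where the encoded protein works: 18 mitochondrial members, 10 peroxisomal members, and 7 members outside that comparison (Eci2 and Crat, found in both organelles, Acsl1, which activates long-chain fatty acids on several membranes, the kinase Pdk4, and Fabp1, Fabp3 and Cd36, which take up or bind fatty acids). All 35 had a probe. A filter on dim probes kept 34 of them, leaving out Fabp1 by its low signal in both groups, and each of the 34 was well above background on all 8 arrays.

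Mitochondria break fatty acids down by repeated rounds of β-oxidation, in which an acyl-CoA is oxidised, hydrated, oxidised again and cleaved by a thiolase, with electrons leaving through the electron transfer flavoprotein. Peroxisomes run a parallel cycle on very-long-chain, branched and dicarboxylic acids, starting with an oxidase that makes hydrogen peroxide, and hand shortened chains on as carnitine esters. The proximal tubule of the kidney is known to rely on fatty acids for most of its ATP, and the nuclear receptor PPARα drives many of these genes in rodents.

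Signals below are relative signals: the processed signal of a probe divided by the 75th percentile of its own array. They compare arrays for 1 probe and say nothing about 1 gene against another. Log2 fold changes are APL over Control with the moderated standard error after ±, n = 4 in each group. Lower and higher stand for an adjusted p under 0.05 in the limma fit, with adjustment over all 21358 genes or unnamed transcripts tested. The 75th percentile itself was 455 ± 53 on the APL arrays and 291 ± 18 on the Control arrays (SD, n = 4 each), so unscaled signals were 1.56-fold brighter with APL, and each fold change is relative to that overall shift. Arrays correlated at 0.919 to 0.961 within APL, at 0.897 to 0.937 within Control and at 0.802 to 0.858 between the groups, across genes, which are not independent replicates. The 2 slides held 2 arrays of each group.

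Most fatty acid oxidation genes were lower in APL kidneys. Of the 34 tested, 23 were called lower and 1, Pdk4, was called higher, beside 11.6% of all genes tested called lower and 11.9% called higher. The median log2 fold change was -1.25 for the 34, against -0.03 for all genes tested. All 4 APL values lay below all 4 Control values for 21 members, beside 15.9% of all genes tested. Pdk4 was the 1 member with all 4 APL values above, beside 13.9% of all genes. The members were chosen with earlier results of these data known, so these counts describe the list and were given no test of their own. In bulk tissue, fewer cells of a type and less RNA per cell cannot be told apart.

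Markers of the proximal tubule fell in the same samples. Of 14 listed markers, 12 were called lower and 1 higher, with a median log2 fold change of -3.65. Their summed relative signal ran from 57.4 to 80.1 in APL kidneys, against 960 to 1142 in Control kidneys, and all 14 were above background on at least 1 array. Endothelial markers were lower as well, 4 of 5 called, with a sum of 0.363 to 0.616 in APL kidneys, against 3.54 to 6.74 in Control kidneys. Of the called ones, Emcn and Tek were each well above background on only 1 APL array, against 4 Control arrays. Their lowest APL values, 0.00205 and 0.00203, lay under the floor of 0.005 set on signals, so the size of their falls depends on that floor. Kdr and Pecam1 were above background on all 4 arrays of each group, with log2 fold changes of -3.73 ± 0.28 and -2.79 ± 0.49. Thick ascending limb markers were lower too, 3 of 5 called and all 5 below 0, with a sum of 1.77 to 18.99 in APL kidneys, against 42.6 to 60.9 in Control kidneys. The other lists had few tested markers, so their counts cannot show whether these cell types differed from those above. Of all genes tested, 11.6% were called lower and 11.9% higher. Principal cell, fibroblast and macrophage markers each had 0 called lower and 1 higher, of 5, 4 and 3 tested. Of intercalated cell markers 0 of 5 were called, and of T and B cell markers 0 of 2. Distal tubule, adipocyte and erythroid markers each had 1 called lower of 3 tested, and podocyte and muscle markers each 1 lower and 1 higher of 5. Median log2 fold changes were -1.62 for distal tubule and -1.69 for erythroid markers, against -1.17 for thick ascending limb markers. Podocyte, macrophage and T and B cell markers had medians of -0.50, -0.24 and -0.20. Those of intercalated cell, fibroblast, adipocyte, muscle and principal cell markers were 0.15, 0.42, 0.50, 0.94 and 0.96. The part of any of these cell types in the fall of fatty acid oxidation genes was not tested. The 5 liver markers, of which 1 passed the filter, summed to at most 0.201 in APL kidneys and at most 0.0747 in Control kidneys. Each sum follows its brightest probes, so it compares arrays within a list and not 1 list with another.

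**Figure D1:**
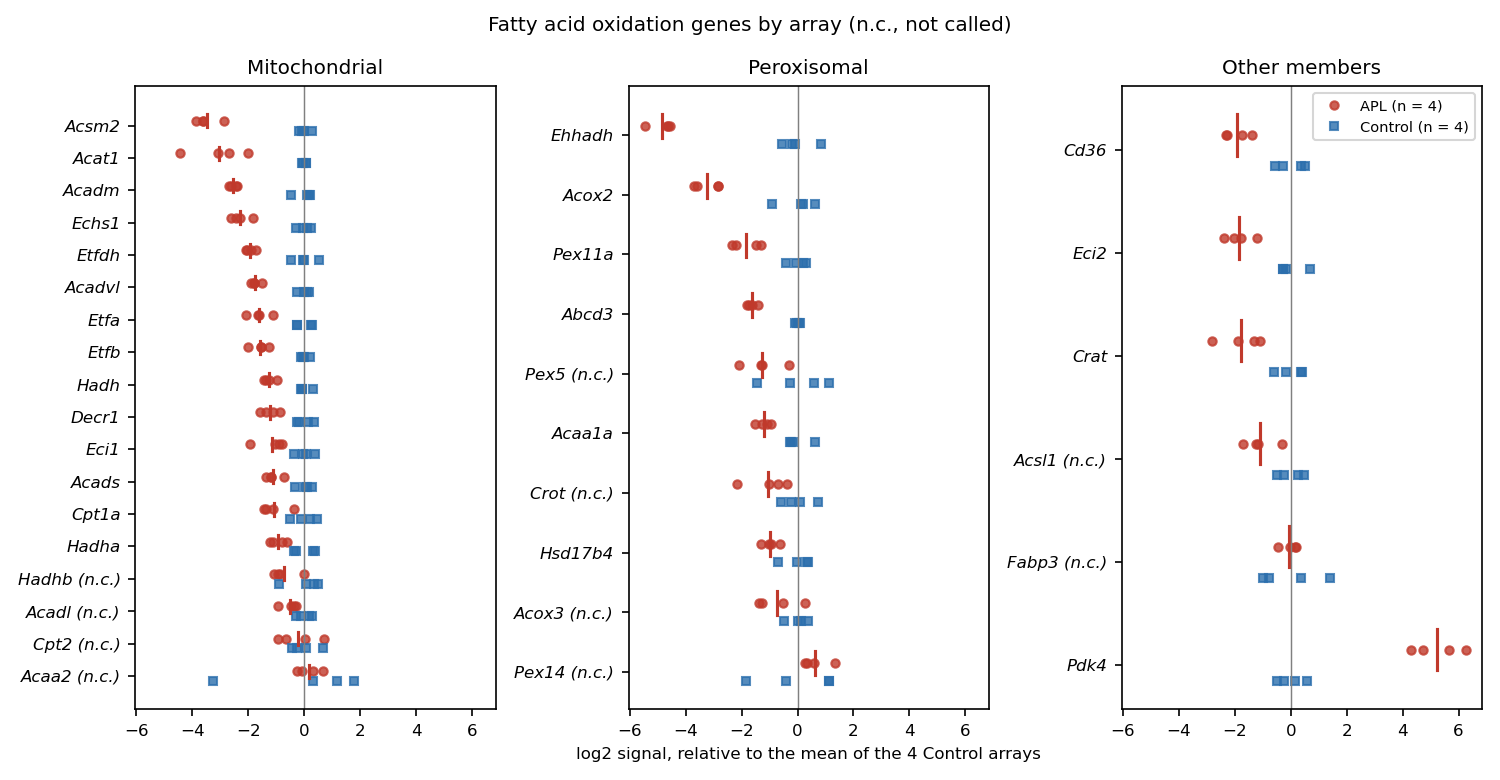
Relative signal of the 34 tested members on each array, as log2 difference from the mean of the 4 Control arrays; circles are APL arrays, squares are Control arrays, the vertical bar is the APL mean, and n.c. marks members not called. Acsm2, Ehhadh and Acox2 stand far to the left of their Control arrays, Pdk4 stands to the right, and Acaa2 has 1 Control array far below the other 3.

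Promoter sequence is shown for the member with the deepest fall under the processing used here (Ehhadh), the only one that rose (Pdk4), the electron transfer members with an NRF1 element (Etfb and Etfdh; Etfa, the other member of that group, held none) and the only member with a PPAR element in the window (Fabp1). Sequences come from RefSeq, build GRCr8, and run 5′ to 3′ on the strand of the gene, upstream of the annotated start. Capitals mark a CCAAT box (CCAAT) or a GC box (GGGCGG) in Ehhadh and Pdk4, the NRF1 element (GCGCA and GCGC with any 1 base between) in Etfb and Etfdh, and the relaxed PPAR element (AGGNCA and AGGNCA with any 1 base between) in Fabp1, on either strand. The Ehhadh stretch is chr11:92746309-92746408 (plus strand), Pdk4 chr4:34568390-34568489 (minus), Etfb chr1:102988399-102988478 (plus), Etfdh chr2:167060879-167060958 (minus) and Fabp1 chr4:104749230-104749309 (plus).
Ehhadh: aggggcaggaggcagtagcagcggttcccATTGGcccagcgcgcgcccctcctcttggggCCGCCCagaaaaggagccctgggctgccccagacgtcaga
Pdk4: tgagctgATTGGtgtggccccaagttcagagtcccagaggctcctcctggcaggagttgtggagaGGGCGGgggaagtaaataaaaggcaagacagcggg
Etfb: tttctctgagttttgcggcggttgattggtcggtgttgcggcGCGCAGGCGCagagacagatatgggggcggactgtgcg
Etfdh: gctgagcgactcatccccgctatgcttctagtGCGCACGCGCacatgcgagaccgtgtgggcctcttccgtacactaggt
Fabp1: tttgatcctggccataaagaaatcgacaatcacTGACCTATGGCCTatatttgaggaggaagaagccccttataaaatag

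The windows searched ran from 250 bases before to 50 bases after the start, and 32 of the 35 members had one. Of these 32, 22 (68.8%) held a GC box, against 33.1% of all 33465 windows. A CCAAT box stood in 12 (37.5%), against 37.5% of all windows, and the NRF1 element in 3 (9.38%), Abcd3, Etfb and Etfdh, against 4.25%. The relaxed PPAR element was found in Fabp1 alone, against 0.415% of all windows, and the exact form (AGGTCA in both places) and the estrogen-related receptor element TNAAGGTCA were found in 0 of the 32, against 0.0538% and 1.20% of all windows. A match is a string of letters in this window and no more. Shares of members count genes, while shares of all windows count windows, with no filter on having a probe or being tested. The windows of Hadha and Hadhb overlap, and the only GC box of Hadha is also counted for Hadhb. Ehhadh and Pdk4, which moved in opposite directions, each held a CCAAT box and a GC box.

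Among the mitochondrial members, 14 of 18 were called lower and 0 higher, with a median of -1.25 and a range from -3.50 to 0.16. The first steps, activation and entry, were uneven. Acsm2, which activates medium-chain fatty acids in the matrix, had relative signals of 4.61, 5.55, 9.36 and 5.48 in APL kidneys, against 59.8, 83.2, 67.01 and 64.01 in Control kidneys. The groups were far apart, and Acsm2 fell by 3.50 ± 0.26 on the log2 scale, 11.3-fold (adjusted p = 9.82e-05). Cpt1a, the carnitine palmitoyltransferase that gates entry of long chains, had 0.906, 0.764, 1.52 and 0.7200 in APL kidneys, against 2.26, 1.81, 2.65 and 1.36 in Control kidneys. The highest APL value passed the lowest Control value, and its log2 fold change of -1.07 ± 0.32 only just met the threshold (adjusted p = 0.0456), with the call kept without Control replicate 4 or APL replicate 3 and lost without any 1 of the other 6 arrays (adjusted p up to 0.114). It was also lost with slide as a block (adjusted p = 0.0634) and under 4 other settings (adjusted p up to 0.363). Cpt2, the inner-membrane partner of Cpt1a, had a log2 fold change of -0.22 ± 0.41 (95% interval -1.17 to 0.74), so no change was detectable with 4 arrays in each group.

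The acyl-CoA dehydrogenases take the first oxidation and differ in chain length. Acadm, for medium chains, had relative signals of 2.01, 1.76, 2.05 and 1.66 in APL kidneys and 12.5, 7.72, 12.2 and 11.7 in Control kidneys. Its 4 APL values were closely grouped, and the log2 fold change was -2.54 ± 0.22, 5.81-fold (adjusted p = 0.000193). The probe of Acadm was printed 10 times on each array, and those spots varied by 2.76% to 5.12% (coefficient of variation), far less than the gap between the groups. Acadvl, for very long chains, had 2.47, 3.01, 2.495 and 2.33 in APL kidneys and 8.69, 9.71, 7.17 and 9.38 in Control kidneys, a log2 fold change of -1.76 ± 0.19 (adjusted p = 0.000559). Acads, for short chains, fell by 1.13 ± 0.23 (adjusted p = 0.0103). Acads was not called under normexp scaled to the 75th percentile (adjusted p = 0.0895) or without scaling (adjusted p = 0.162). Acadl, for long chains, did not pass, at -0.53 ± 0.23 (95% interval -1.07 to 0.01, adjusted p = 0.142), and its groups overlapped. Whether Acadl differed from Acadm was not tested.

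Hydration, the second oxidation and thiolysis also gave mixed sizes. Echs1, the short-chain enoyl-CoA hydratase, had 2.88, 2.57, 4.33 and 3.202 in APL kidneys and 15.3, 12.6, 16.8 and 18.5 in Control kidneys. These values did not overlap, and Echs1 fell by 2.30 ± 0.23 (adjusted p = 0.00042). Hadh, the short-chain hydroxyacyl-CoA dehydrogenase, fell by 1.26 ± 0.20 (adjusted p = 0.00361). Hadha, the alpha subunit of the trifunctional protein that handles long chains, had 4.53, 3.98, 3.24 and 3.001 in APL kidneys and 8.98, 5.63, 8.73 and 5.35 in Control kidneys, close to each other at the edge. It fell by 0.94 ± 0.26 (adjusted p = 0.0359), a call lost without Control replicate 1 or 3 or APL replicate 2, 3 or 4 (adjusted p up to 0.0922). Hadhb, the beta subunit and thiolase of the same protein, did not pass at -0.73 ± 0.38 (adjusted p = 0.2), with Control replicate 3 inside the APL range.

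Acat1, the mitochondrial acetoacetyl-CoA thiolase, which also serves isoleucine and ketone body breakdown, had 0.139, 0.354, 0.464 and 0.749 in APL kidneys, against 2.86, 3.14, 3.12 and 2.89 in Control kidneys. The Control values were nearly alike and the APL values spread widely below them, and Acat1 fell by 3.05 ± 0.47, 8.29-fold (adjusted p = 0.00298). With normexp it was -1.94 with the 75th percentile and -2.23 with quantile normalization, called in both. Acaa2, the medium-chain thiolase, had 0.641, 0.968, 1.22 and 0.737 in APL kidneys and 1.73, 0.964, 2.64 and 0.0814 in Control kidneys. Control replicate 4 stood far below the other Control arrays, so that the log2 fold change was 0.16 ± 1.0 with all arrays and -0.92 without that array, neither past the threshold.

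The electron transfer flavoprotein genes and both auxiliary enzymes were called lower. Etfb, its beta subunit, had 14.7, 14.7, 17.7 and 10.495 in APL kidneys and 39.2, 41.02, 48.6 and 42.4 in Control kidneys. Etfa, the alpha subunit, had 0.719, 0.698, 0.518 and 1.01 in APL kidneys and 2.68, 1.83, 1.84 and 2.600 in Control kidneys. Etfdh, which passes the electrons to ubiquinone, had 0.935, 0.8286, 0.824 and 1.04 in APL kidneys and 3.44, 2.48, 4.995 and 3.36 in Control kidneys. In none of the 3 did the groups overlap, and the log2 fold changes were -1.59 ± 0.22, -1.62 ± 0.27 and -1.94 ± 0.25 (adjusted p = 0.00161, 0.00403 and 0.00121). Decr1 and Eci1, which let chains with double bonds into the cycle, had log2 fold changes of -1.24 ± 0.24 and -1.17 ± 0.31 (adjusted p = 0.00861 and 0.0294). Eci1 was -1.87 and -1.83 with the normexp scalings, not called in either (adjusted p = 0.109 and 0.0790). The call of Eci1 was also lost without Control replicate 1, 3 or 4 or APL replicate 4 (adjusted p up to 0.0703).

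Among the peroxisomal members, 6 of 10 were called lower and 0 higher, with a median of -1.23 and a range from -4.83 to 0.63. With the processing used here, the deepest fall of the list was that of Ehhadh, the bifunctional enzyme that hydrates and then oxidises straight chains. It had 0.139, 0.135, 0.0782 and 0.146 in APL kidneys, against 3.21, 3.01, 6.07 and 2.36 in Control kidneys. The highest APL value was far below the lowest Control value, and Ehhadh fell by 4.83 ± 0.35, 28.4-fold (adjusted p = 7.92e-05). With normexp background correction it was smaller and still called, -2.82 with the 75th percentile and -3.01 with quantile normalization, and Acsm2 then fell further (-3.65 and -3.21). Hsd17b4, the other bifunctional enzyme, which handles branched chains and bile acid precursors, had 8.43, 5.23, 6.38 and 6.74 in APL kidneys and 8.08, 12.95, 16.8 and 16.6 in Control kidneys. Here the groups overlapped, and a log2 fold change of -0.99 ± 0.29 (adjusted p = 0.0442) lost its call without any 1 of 7 arrays, all but Control replicate 1 (adjusted p up to 0.106).

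The oxidases and the thiolase differed in size too. Acox2, which oxidises bile acid precursors, had 0.0506, 0.0905, 0.0536 and 0.0911 in APL kidneys and 0.742, 0.344, 0.708 and 0.992 in Control kidneys, with no overlap. It fell by 3.24 ± 0.38, 9.46-fold (adjusted p = 0.00079). Under normexp background correction scaled to the 75th percentile it was -1.05 and not called (adjusted p = 0.298). Acox3, the pristanoyl-CoA oxidase, had a log2 fold change of -0.72 ± 0.39 (95% interval -1.63 to 0.19) and 0.50 with normexp and the 75th percentile, neither past the threshold. Acaa1a, the peroxisomal thiolase, had 8.34, 9.45, 10.511 and 7.05 in APL kidneys and 17.4, 16.8, 31.5 and 18.2 in Control kidneys on the brighter of its probes, a log2 fold change of -1.21 ± 0.27 (adjusted p = 0.0149). The other probe gave -0.76 ± 0.24, and the call was lost when each gene was represented by its probe with the smallest t.

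Transport and peroxisome assembly members were split. Abcd3, the peroxisomal membrane transporter that brings acyl-CoAs in, had 17.8, 19.1, 22.3 and 17.1 in APL kidneys and 56.02, 61.1, 62.4 and 57.9 in Control kidneys. The groups were tight and apart, with a log2 fold change of -1.64 ± 0.18, 3.13-fold (adjusted p = 0.000527). Pex11a, which drives peroxisome proliferation, had 0.986, 0.879, 1.62 and 1.81 in APL kidneys and 3.37, 4.37, 5.48 and 5.097 in Control kidneys, a log2 fold change of -1.84 ± 0.30 (adjusted p = 0.00422). Crot, which makes the medium-chain carnitine esters that leave peroxisomes, did not pass at -1.07 ± 0.45 (adjusted p = 0.122).

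Neither member of the import machinery was called. Pex5, the receptor for the carboxy-terminal targeting signal, had 0.948, 0.551, 1.895 and 0.972 in APL kidneys and 5.12, 3.55, 0.868 and 1.98 in Control kidneys, and Control replicate 3 lay inside the APL range. Its log2 fold change was -1.26 ± 0.60 (adjusted p = 0.167), and it was called without that array, at -1.74 (adjusted p = 0.0483). Its other probe gave -1.13 ± 0.70. By slide it was -2.56 on slide 1 and 0.05 on slide 2. Pex14, the docking protein for Pex5, had a log2 fold change of 0.63 ± 0.67 (95% interval -0.91 to 2.17), with 0.42 ± 0.54 on its other probe.

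Set side by side, the mitochondrial and the peroxisomal members had nearly the same middle. The medians were -1.23 for peroxisomal and -1.25 for mitochondrial members, a difference of 0.02, and on slide 1 they were -1.52 and -1.37, on slide 2 -1.41 and -1.27. For each array, the median over members of the log2 signal, centred on each member's mean over the 8 arrays, was taken as a summary. For peroxisomal members it ran from -0.96 to -0.44 in APL kidneys and from 0.48 to 1.05 in Control kidneys. For mitochondrial members it ran from -0.81 to -0.55 in APL kidneys and from 0.51 to 0.94 in Control kidneys. The peroxisomal minus mitochondrial difference ran from -0.15 to 0.18 in APL kidneys and from -0.39 to 0.24 in Control kidneys, so the groups overlapped entirely in it. Leaving out Pex5, Pex14 and Pex11a gave a peroxisomal median of -1.21, and counting Eci2 and Crat with the peroxisomal members gave -1.45. Of the peroxisomal members 6 of 10 were called lower, against 14 of 18 mitochondrial ones, and the difference between these shares was not tested.

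The cycles use different enzymes for like chemistry, and 7 pairs of like function were compared by the log2 ratio of the pair on each array. Most set a peroxisomal member or Eci2 beside a mitochondrial one, and 2 pairs lay within peroxisomes. Crot and Cpt2 both handle carnitine esters but do not serve the same step. The exact two-sided permutation p over the 70 splits of the 8 arrays cannot go below 0.0286, and no pair passed 0.05 after adjustment over the 7 pairs. With 3 pairs at that lowest p, the adjusted p could not go below 0.0667, however large the gap. No conclusion is drawn from the adjusted values for that reason. Ehhadh and its mitochondrial counterpart Hadha differed by -3.89 on the log2 scale, with ratios that did not overlap between groups (exact p = 0.0286, adjusted p = 0.0667). Within peroxisomes, the difference of Ehhadh from Hsd17b4 was -3.84 and that of Acox2 from Acox3 was -2.52, both again without overlap and with the same p (exact p = 0.0286, adjusted p = 0.0667). For Abcd3 against Cpt1a the difference was -0.57 (exact p = 0.143), for Eci2 against Eci1 -0.68 (exact p = 0.114), for Crot against Cpt2 -0.85 (exact p = 0.0571) and for Acaa1a against Hadhb -0.48 (exact p = 0.600). In those 4 pairs the ratios overlapped. The 3 pairs without overlap each hold Ehhadh or Acox2, whose falls were over 1.5 times smaller with normexp. Its offset of 50 draws the fold changes of dim probes toward 0. The pairs were chosen with the members' fold changes known.

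**Figure D2:**
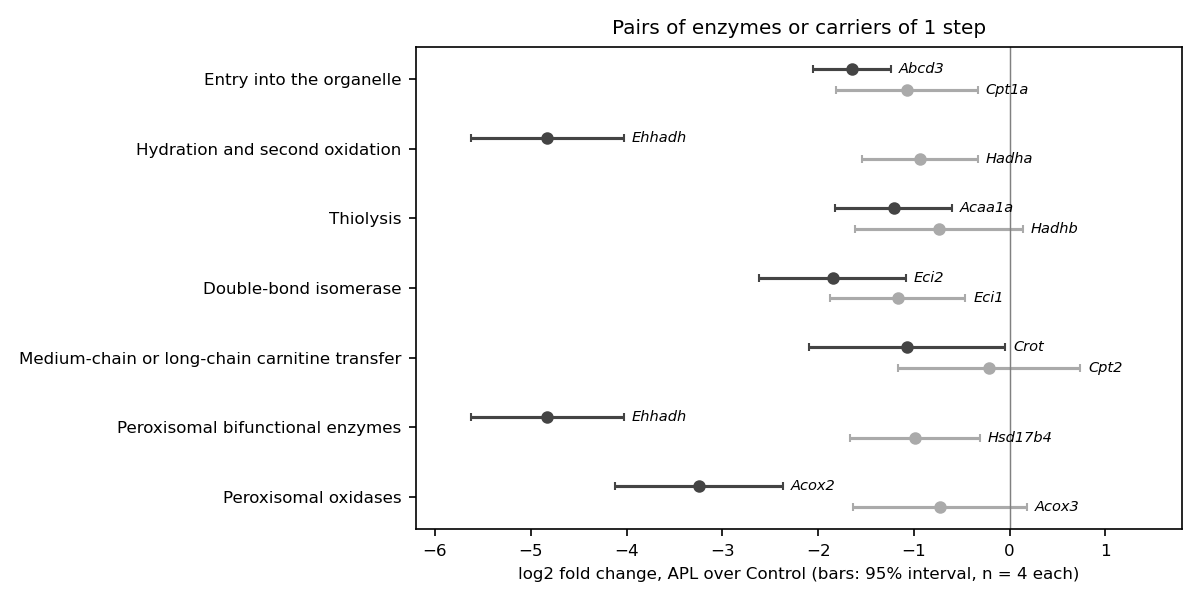
Log2 fold change, APL over Control, of the 7 pairs of enzymes or carriers of like function, with 95% intervals from limma (n = 4 each). In the first 5 rows the dark point is a peroxisomal member or Eci2 and the grey point a mitochondrial one, and in the last 2 rows both are peroxisomal. Ehhadh at -4.83 lies clear of Hadha at -0.94 and Hsd17b4 at -0.99, while the intervals of the other mixed pairs overlap.

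Of the 7 remaining members 6 were tested, and 3 were called lower and 1 higher, beside 11.6% and 11.9% of all genes tested. Pdk4, a kinase that shuts down pyruvate dehydrogenase and so spares glucose when fat is burned, had 2.37, 1.59, 0.613 and 0.835 in APL kidneys, against 0.0344, 0.0261, 0.0466 and 0.0224 in Control kidneys. It was the only member higher in every APL kidney, by 5.24 ± 0.46 on the log2 scale or 37.9-fold (adjusted p = 0.0002). Under normexp scaling the rise was smaller, 2.36 with the 75th percentile and 2.17 with quantile normalization, and the call held under every setting tried, within each slide included.

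Eci2, an enoyl-CoA isomerase, had 0.573, 0.867, 1.29 and 0.725 in APL kidneys and 2.48, 2.63, 4.83 and 2.48 in Control kidneys, a log2 fold change of -1.85 ± 0.33 (adjusted p = 0.00631). Crat, which makes short-chain carnitine esters, had 1.15, 3.295, 3.79 and 2.21 in APL kidneys and 7.15, 5.35, 10.7 and 10.6 in Control kidneys, a log2 fold change of -1.77 ± 0.42 (adjusted p = 0.0207). Neither overlapped, though Crat lost its call without Control replicate 4 or APL replicate 4 (adjusted p up to 0.0562). Acsl1 did not pass at -1.10 ± 0.35 (adjusted p = 0.0562), near the threshold, and was called under 5 of the 13 other settings on all 8 arrays.

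Cd36, a fatty acid uptake receptor of endothelium, macrophages and other cells, had 0.229, 0.1197, 0.123 and 0.176 in APL kidneys and 0.841, 0.7596, 0.399 and 0.487 in Control kidneys. No APL value reached a Control value, and Cd36 fell by 1.93 ± 0.33 (adjusted p = 0.00522), with -2.11 ± 0.41 on its other probe. Under normexp scaled to the 75th percentile it was -0.79 and not called (adjusted p = 0.367). Endothelial markers fell in the same kidneys, as given above, and their part in the value of Cd36 was not tested. Fabp3, the heart-type binding protein, did not pass at -0.04 ± 0.52 (95% interval -1.25 to 1.16), with APL values of 0.279 to 0.438 inside the Control range of 0.194 to 1.03. Fabp1, the liver-type binding protein whose promoter window held the PPAR element, was well above background on 1 APL array and 2 Control arrays, with relative signals of 0.00546, 0.0143, 0.00817 and 0.0142 in APL kidneys and 0.0167, 0.0126, 0.0181 and 0.0117 in Control kidneys, and was not tested.

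Other genes of the pathway were read from 5 lists of 133 symbols, of which 122 were tested. Of these, 51 (41.8%) were called lower and 10 (8.20%) higher, beside 11.6% and 11.9% of all genes tested, with a median of -0.57. Of 42 other genes of peroxisomal lipid metabolism and biogenesis, 23 (54.8%) were lower and 2 (4.76%) higher, with a median of -1.28. Amacr, the racemase that prepares branched chains, had 0.0829, 0.0867, 0.431 and 0.258 in APL kidneys and 9.002, 6.75, 9.37 and 6.78 in Control kidneys, a log2 fold change of -5.55 ± 0.55 (adjusted p = 0.00036). Cat, the catalase that removes the hydrogen peroxide of the oxidases, had 4.47, 2.54, 1.76 and 2.08 in APL kidneys and 48.1, 46.7, 51.9 and 51.4 in Control kidneys, a log2 fold change of -4.29 ± 0.30 (adjusted p = 6.90e-05). Dao, D-amino acid oxidase, and Decr2, the peroxisomal dienoyl-CoA reductase, had log2 fold changes of -5.29 ± 0.36 and -4.10 ± 0.34. With normexp and the 75th percentile Amacr was -3.71 and Decr2 -2.71, both still called. Abcd4, a transporter of the same family as Abcd3 that works in lysosomes, was called higher, at 1.82 ± 0.49 (adjusted p = 0.0314). Its call was lost without Control replicate 2 or 3 or APL replicate 2, 3 or 4 (adjusted p up to 0.0846). Abcd4 was also not called with array median scaling (adjusted p = 0.0532) or the replicate block (adjusted p = 0.0701). With normexp and quantile normalization it was 0.64 and not called (adjusted p = 0.0861).

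Of 21 other mitochondrial genes, 9 (42.9%) were lower and 1 (4.76%) higher, beside 11.6% and 11.9% of all genes tested, with a median of -0.71. The largest falls that met the rule for names, with log2 fold changes, were those of Acsm3, a medium-chain synthetase (-4.79 ± 0.78), Ivd, a dehydrogenase of leucine breakdown (-2.81 ± 0.44), Hsd17b10 (-2.14 ± 0.20) and Mlycd, malonyl-CoA decarboxylase, which lifts the brake on Cpt1a (-1.86 ± 0.28). Acsm3 thus fell as its relative Acsm2 did, with 0.188, 0.249, 0.405 and 0.9296 in APL kidneys and 4.301, 7.600, 7.45 and 42.6 in Control kidneys, Control replicate 4 being far above the other 3. Cpt1c, a brain-type relative of Cpt1a, was the higher one, with 0.495, 0.333, 0.112 and 0.366 in APL kidneys and 0.109, 0.0607, 0.0342 and 0.0948 in Control kidneys (log2 fold change 2.08 ± 0.54, adjusted p = 0.0288), a call lost without Control replicate 2 or 3 or APL replicate 1, 2 or 4 (adjusted p up to 0.0766). With normexp and the 75th percentile, Acsm3 was -3.64 and called, while Mlycd (-0.72, adjusted p = 0.407) and Cpt1c (1.05, adjusted p = 0.177) were not.

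Genes of uptake, binding and activation moved both ways. Of 18 tested, 4 (22.2%) were lower and 4 (22.2%) higher, beside 11.6% and 11.9% of all genes tested, with a median of 0.35. Acss2, the acetyl-CoA synthetase of cytosol and nucleus, had 2.62, 3.38, 1.45 and 1.95 in APL kidneys, against 73.9, 63.1, 85.01 and 60.2 in Control kidneys, a log2 fold change of -4.97 ± 0.29 (adjusted p = 3.80e-05). Fabp5, a binding protein, Slc22a5, the carnitine transporter, and Acsl3, a synthetase, were lower, with log2 fold changes of -2.72 ± 0.39, -2.49 ± 0.36 and -1.004 ± 0.25. For Acsl3, leaving out Control replicate 1 or 3 or APL replicate 1, 2 or 3 ended the call (adjusted p up to 0.0610). Slc27a1, a fatty acid transport protein, and Acsl5, a synthetase, rose by 1.60 ± 0.36 and 1.58 ± 0.35 (adjusted p = 0.0159 and 0.0163). Slc27a1 was not called with the replicate block (adjusted p = 0.0522), nor was Acsl5 with array median scaling (adjusted p = 0.0503). With normexp and quantile normalization Slc27a1 was 0.85 and still called. Of 6 ketone body enzymes, 5 (83.3%) were lower and 0 higher, with a median of -2.21. Among them, with log2 fold changes, were Bdh2 (-3.54 ± 0.30), Bdh1 (-2.06 ± 0.38) and Oxct1 (-2.30 ± 0.26, adjusted p = 0.000729). Oxct1, which uses ketone bodies, had 5.46, 6.28, 5.89 and 3.09 in APL kidneys and 22.7, 23.6, 24.04 and 28.6 in Control kidneys. With normexp and the 75th percentile, Acsl5 (1.23, adjusted p = 0.0614), Acsl3 (-0.79, adjusted p = 0.135) and Bdh1 (-0.62, adjusted p = 0.491) were not called and Bdh2 was -2.22.

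Of 35 PPAR regulators and targets, 10 were lower and 3 higher, with a median of -0.43. The ω-hydroxylases Cyp4a2, Cyp4a3 and Cyp4a8, which start the breakdown of fatty acids from the far end, had log2 fold changes of -5.79 ± 0.54, -3.91 ± 0.39 and -3.08 ± 0.22, while Cyp4a1 of the same family, named after its values were seen, was not called at -0.53 ± 0.75 (adjusted p = 0.641). Members of this multigene family can share probe signal, and Cyp4a8 was -0.49 and not called on its probe with the smallest t (adjusted p = 0.146). Cyp4a2 had 1.94, 2.35, 8.25 and 1.23 in APL kidneys, against 121, 142, 172 and 144 in Control kidneys. The 3 higher genes were 8.57% of those tested, beside 11.9% of all genes, and the 10 lower ones 28.6%, beside 11.6%. Angptl4, an inhibitor of lipoprotein lipase measured above background on 3 of 4 Control arrays, had 0.313, 0.808, 1.23 and 0.357 in APL kidneys and 0.0153, 0.148, 0.0426 and 0.0543 in Control kidneys (log2 fold change 3.59 ± 0.73, adjusted p = 0.0107). Ucp2, a mitochondrial uncoupling protein, had 10.6, 6.81, 9.88 and 12.7 in APL kidneys and 0.497, 0.763, 1.05 and 1.45 in Control kidneys (log2 fold change 3.48 ± 0.37, adjusted p = 0.000479). The lipid droplet proteins went opposite ways: Cidea rose by 5.11 ± 0.93, with 2 Control arrays above background, and Cidec fell by 4.85 ± 0.74. With normexp and the 75th percentile, Cidea was 2.38, Angptl4 1.69 and Cidec -3.47, all still called. Ppara, the gene of PPARα, named here after its values were seen, did not pass at -1.10 ± 0.72 (adjusted p = 0.304), with overlapping values of 0.0932, 0.134, 0.236 and 0.137 in APL kidneys and 0.154, 0.739, 0.0981 and 0.7696 in Control kidneys.

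**Figure D3:**
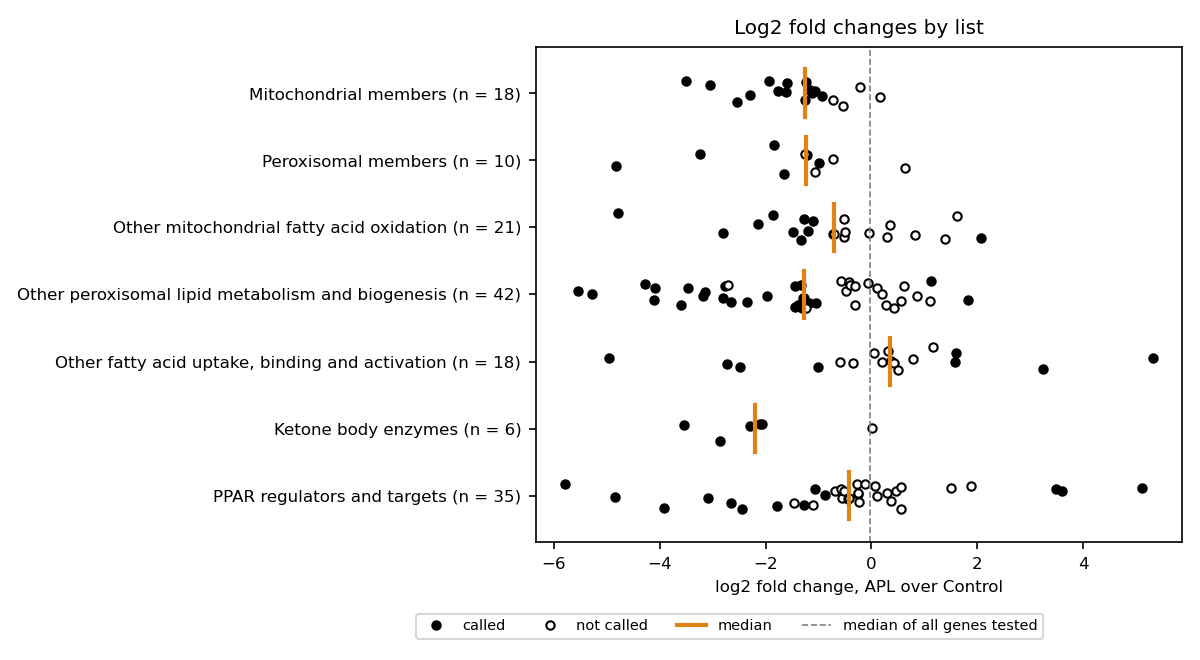
Log2 fold change, APL over Control, of every tested gene in the mitochondrial and peroxisomal member sets and in the 5 lists of other pathway genes; filled points were called, open points were not, orange bars are medians and the dashed line is the median of all genes tested. The bars of both member sets and of the other peroxisomal genes lie close together near -1.25, while uptake, binding and activation genes lie on both sides of 0.

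The level of both medians depended on the scaling between arrays. A scaling factor for each array moves all genes alike and cannot change the difference between the sets or their distance from all genes. Settings that can change the peroxisomal minus mitochondrial difference gave 0.31 with normexp and the 75th percentile, 0.16 with normexp and quantile normalization, 0.12 with the mean of all kept probes, 0.15 with the probe of smallest t and -0.15 with array weights, so its sign was not settled. Without scaling, peroxisomal members had a median of -0.60 and mitochondrial members -0.61, with all genes tested at 0.61. With each array's median in place of its 75th percentile they were -1.52 and -1.54, with all genes at -0.31. The share of all called genes that were higher was 50.8% with the scaling used, 83.7% without scaling and 31.1% with the array median, while the called members remained 1 higher in each, beside 23, 14 and 24 lower.

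**Figure D4:**
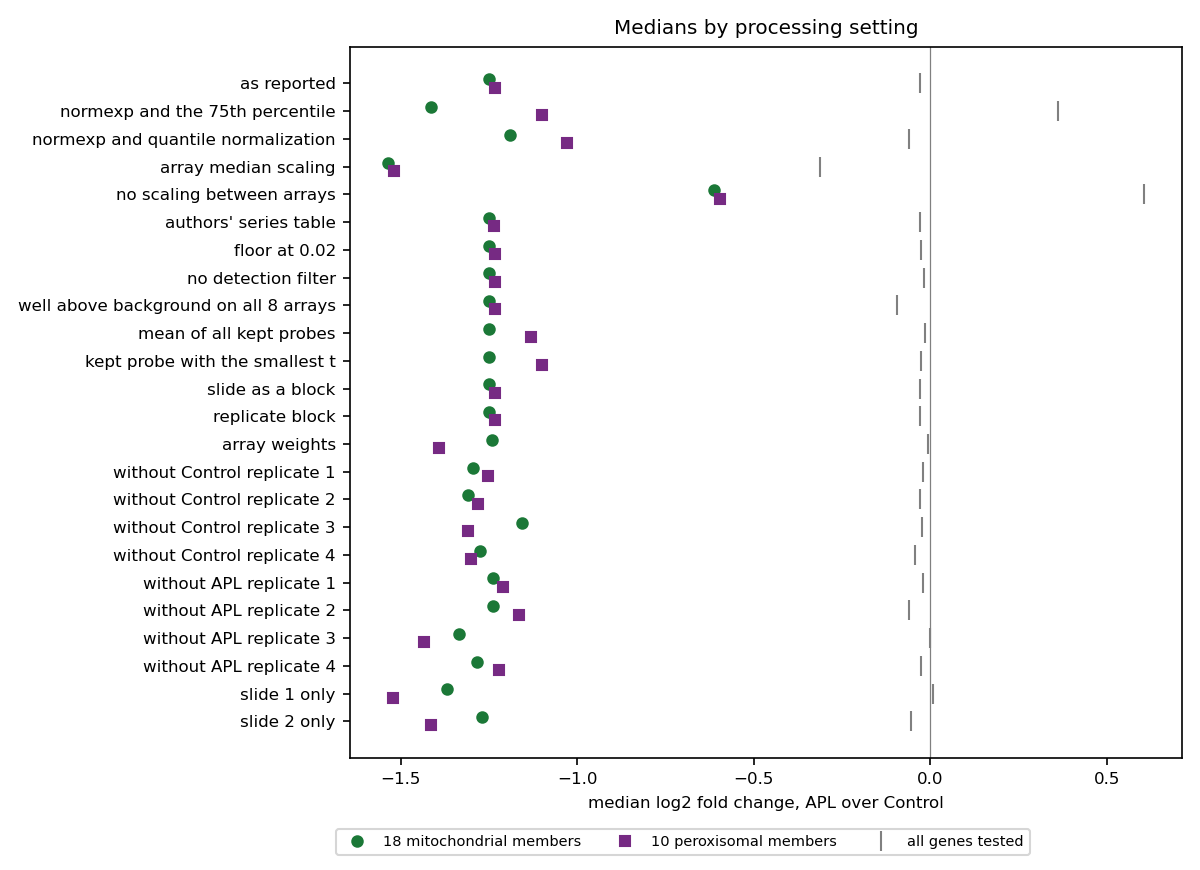
Median log2 fold change, APL over Control, of the mitochondrial members (circles), the peroxisomal members (squares) and all genes tested (ticks) under each processing setting, with 1 array left out, and within each slide. Both member medians stay below the tick of all genes in every row, and the unscaled row moves all 3 to the right together.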

How the data were processed

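Total RNA was labelled with Cy3 and hybridised, 1 sample an array, per the labels' protocols. The deposited scanner files hold linear intensity values from Agilent Feature Extraction 10.5.1.1 (protocol GE1_105_Dec08, design 028282, header build rn4), per the file headers; the processed signal had background and spatial trend removed. A deposited table of the authors holds log2 values. It matched log2 of the processed signal over the 75th percentile, centred on each probe's median, within 0.01 for 91.4% to 94.9% of values an array (correlation 0.9992 to 0.9997), which gives its scale, centring and direction. Its column medians were 0.034, 0.066, 0.077 and 0.0060 for Control 1 to 4 and -0.072, 0.019, -0.14 and -0.045 for APL 1 to 4.

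Here, 2 to 64 non-uniform spots an array were set aside, spots of a probe averaged, signals divided by the array's 75th percentile, floored at 0.005 and put on the log2 scale. Probes well above background on at least 4 of 8 arrays with no missing value were kept (24267 of 30367; 0 saturated spots). Symbols came from RefSeq's GRCr8 table by unversioned accession (18643 probes named, 11724 not), and a gene's brightest kept probe stood for it. The test was that of limma (lmFit and eBayes; version 3.58.1, with R 4.3.3), Benjamini-Hochberg adjusted over 21358 genes; the fit was tested on simulated data. The number of arrays limits the precision. Same-numbered APL and Control arrays did not deviate together (correlations -0.016 to 0.048), so they were not paired. Alternatives covered scaling, floor, filter, probe choice, slide, replicate block, array weights and leaving out each array; the analysis within each slide was added after the data were seen. Members and lists were chosen with earlier results of these data known. All 35 members are named; in each other list, up to 4 rises and 4 falls are, by size, among called genes with no overlap and at least 2 dim-group arrays above background. A gene that this rule names is not reported here.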

Additional observations from a re-analysis of the deposited data

Results flagged for a closer look

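In 5 of 122 sets of 4 arrays (each gene named under the rules, in each group), 1 array stood far from the other 3 by Dixon's test; chance gives about 1 in 20 such sets. APL replicate 3 had the lowest Ehhadh, at 0.0782, beside 0.135 to 0.146 in the other APL kidneys. Control replicate 3 had the highest Eci2 (4.83), Hadh (8.70) and Acaa1a (31.5) of the Control kidneys, beside at most 2.63, 6.68 and 18.2 in the other 3. Control replicate 2 had the lowest Acadm, at 7.72, beside at least 11.7. All of these genes kept their call without the array in question.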

How the results depend on the processing

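Of the 24 called members, 13 kept their call under all 13 other settings on 8 arrays and with any 1 array left out: Acsm2, Acat1, Acadm, Echs1, Etfdh, Acadvl, Etfa, Etfb, Ehhadh, Pex11a, Abcd3, Eci2 and Pdk4. The other 11 lost it at least once, Hsd17b4 most often (12 times), then Cpt1a (11), Eci1 and Hadha (8 each). With 1 array left out, 18 to 22 members were lower and 1 higher, the mitochondrial median ran from -1.33 to -1.16, the peroxisomal from -1.43 to -1.17, their difference from -0.15 to 0.07, and 38 to 47 other pathway genes were lower and 7 to 10 higher. Of all genes tested, 8.30% to 9.43% were called lower in those fits. Without scaling 14 members were lower, the medians were -0.61 (mitochondrial) and -0.60 (peroxisomal), and 20 of 122 other pathway genes were higher. Of all 21358 genes tested, 5.33% were called lower and 5863 genes higher under that setting. With normexp and the 75th percentile the mitochondrial median was -1.41, the peroxisomal minus mitochondrial difference 0.31, and 33 other pathway genes were lower and 6 higher; the count of all genes called was 9.40% of those tested, against 23.5%. Array median scaling gave -1.54 (mitochondrial) and -1.52 (peroxisomal), and counting Eci2 and Crat as mitochondrial gave -1.43. On slide 1 alone 4 members were lower, 21 other pathway genes lower and 1 higher, with a peroxisomal median of -1.52; on slide 2 alone these were 1 member, 13 and 2. These counts come from 2 arrays against 2. Of all genes tested, 2.39% were called lower on slide 1 alone and 1.30% on slide 2 alone, against 11.6% with all 8 arrays. Some members that were not called changed sign: Cpt2 (0.17 with normexp and the 75th percentile, 0.42 without scaling, -0.53 to 0.022 with 1 array left out, 0.17 on slide 2), Acaa2 (-0.026 and -0.17 with the normexp scalings, -0.12 with array medians, -0.92 to 0.75 with 1 array left out, -0.71 on slide 1), Acox3 (0.50 with normexp and the 75th percentile), Fabp3 (0.083 with normexp and the 75th percentile, 0.59 without scaling, -0.38 to 0.43 with 1 array left out, 0.73 on slide 2), Acadl (0.11 without scaling) and Pex5 (0.050 on slide 2). With the replicate number as a block 20 members were lower and 1 higher, the calls of Eci1, Hadha and Hsd17b4 being lost, and 15.2% of all genes were called. Calls lost without scaling were those of Crat, Hadh, Decr1, Eci1, Acads, Cpt1a, Hadha, Acaa1a and Hsd17b4 (adjusted p 0.0679 to 0.416), those lost with normexp and the 75th percentile were Eci1, Acads, Cpt1a, Hadha, Acox2, Hsd17b4 and Cd36 (0.0544 to 0.367), and slide as a block ended that of Cpt1a (0.0634). The normexp settings added an offset of 50 to every spot, which by arithmetic draws log2 fold changes of dim probes toward 0. How much of each change came from the offset or from any other part of a setting was not tested. Members near the floor of detection, such as Fabp1, are limited by signal over background.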
